A study of Mus musculus with 13 samples.

Results

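Whole implantation sites that grew from rat embryos in uteri also carrying mouse embryos were compared with sites that grew from mouse embryos alone, on day 7 of pregnancy. An implantation site is the swelling of the uterus at an implanted embryo, made mostly of maternal tissue. The comparison was chosen by sample title and holds 5 of the series' 13 Affymetrix Mouse430_2 arrays, which are the 3 arrays of the co-transferred rat sites and the 2 arrays of the mouse sites. Expression was read with mouse probes as 1 signal for each of 45101 probe sets, and the series has 6 groups (mouse sites, rat sites and co-transferred rat sites, each on day 7 or day 9).

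All recipients were female ICR mice of 25 g on day 3 of pseudopregnancy, per the labels. Mouse embryos had been flushed from pregnant females on day 4, and embryos of Wistar rats on day 5. Co-transferred rat sites came from recipients that received both kinds of embryo, mouse sites from recipients of mouse embryos only, and the third group of day 7, the rat sites, from recipients of rat embryos only. About 100 mg of tissue was extracted for each sample, and about 8 µg of total RNA was labelled. Whether separate animals gave the arrays of 1 group is not stated in the labels, so a p-value covers the spread among these arrays alone, and that spread may be technical. Every group shares the mouse uterus. Whole sites were extracted, maternal tissue and embryo together, so fewer cells of a type and less RNA per cell cannot be told apart. A rat transcript can also bind mouse probes poorly, and no probe sequences were used here.

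In the pregnant mouse, stromal cells around the implanted embryo turn into decidual cells under progesterone, and the luminal epithelium at the site is lost as the embryo comes to lie in the stroma. Decidual cells secrete hormones of the prolactin family, new vessels grow, and natural killer cells gather in the uterus. Prostaglandins, made by the inducible cyclooxygenase, and growth factors of the EGF family act early in this reaction. A rat embryo in a mouse uterus meets the same maternal cells, which belong to another species.

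Every array had been scaled to the same trimmed mean, and the median signal was 141.4 and 151.4 on the mouse arrays and between 162.9 and 182.4 on the co-transfer arrays. The mouse arrays stood apart in their control probe sets, where the ratio of the 3' to the 5' Gapdh probe set was 1.44 and 1.54 and ran from 2.56 to 4.07 elsewhere, and with 18S rRNA 3' signals of 1073 and 2462 against 3684 to 5756. For Actb that ratio was 3.47 and 3.71 on the mouse arrays and 2.36 to 2.64 on the co-transfer arrays. Hybridisation runs were inferred from the times in the fluidics block of the experiment files, split at gaps of over 30 minutes. They put both mouse arrays in a run with the rat sites of day 7, replicates 1 and 2 of the co-transferred rat sites in another with the mouse sites of day 9, and replicate 3 alone in a run of its own on another date and scanner. Run and group therefore cannot be told apart in the comparison with mouse sites. The sum of 6 decidua markers was 50298 to 51202 on the mouse arrays and 71070 to 77695 on the co-transfer arrays with 3 of the 6 called higher. The parts of the control ratios in the results were not tested. The rat sites of day 7 stood apart in Tmem14c, a mitochondrial membrane protein gene, at 140.0 and 119 against 1081 and 1063 in mouse sites and 1452, 1565.5 and 1479 in co-transferred rat sites.

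The co-transferred rat sites differed from the mouse sites across a large share of the array. Differences are given as log2 changes of signal + 57.1, where the added pseudocount is the 25th percentile of all values and shrinks the change of dim probe sets, and were tested with limma across all 13 arrays. Of 22155 tested probe sets, limma called 6901 at an adjusted p under 0.05 (31.1%), 3761 higher (17.0%) and 3140 lower (14.2%). At least 2-fold changes made up 854 of the rises and 614 of the falls. The 2 sets of arrays did not overlap for 12749 probe sets (57.5%), and for 6897 of the 6901 called ones (99.9%). A lack of overlap in a called gene named below therefore adds nothing to its call. Without replicate 2 of the mouse sites 3867 probe sets were called, and 4722 without replicate 1.

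The spread within groups was smaller than the difference between them. Over the tested probe sets (genes, not replicates), the mouse arrays correlated at r = 0.980, the co-transfer arrays at 0.972 to 0.975, and arrays of the 2 groups at 0.915 to 0.937. At least 2-fold differences separated the mouse arrays at 1.49% of probe sets, pairs of co-transfer arrays at 1.59% to 2.0%, and arrays of different groups at 7.04% to 10.3%. Leaving replicate 3 out gave 5719 calls.

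Gene lists are counted with 1 probe set for each of 12010 genes, of which 1769 were called higher (14.7%) and 1823 lower (15.2%), with a median log2 change of 0.026. The shares of a list are read against these values, and no set test was run. Where leaving out 1 array moved a count by over 1.5 times, the count without it is given, with replicates 1 and 2 of the mouse sites called mouse arrays 1 and 2 and the co-transferred replicates called co-transfer arrays 1 to 3. These fits called fewer genes in all: the shares higher and lower over all genes were 7.79% and 8.55% without mouse array 2, 9.73% each without mouse array 1, and 11.6% to 13.3% higher and 12.6% to 14.2% lower without 1 co-transfer array. The bars of calls by list run from the decidual prolactins, all of them higher, to the interferon-induced GTPases, of which 9 of 11 were lower.

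**Figure D1:**
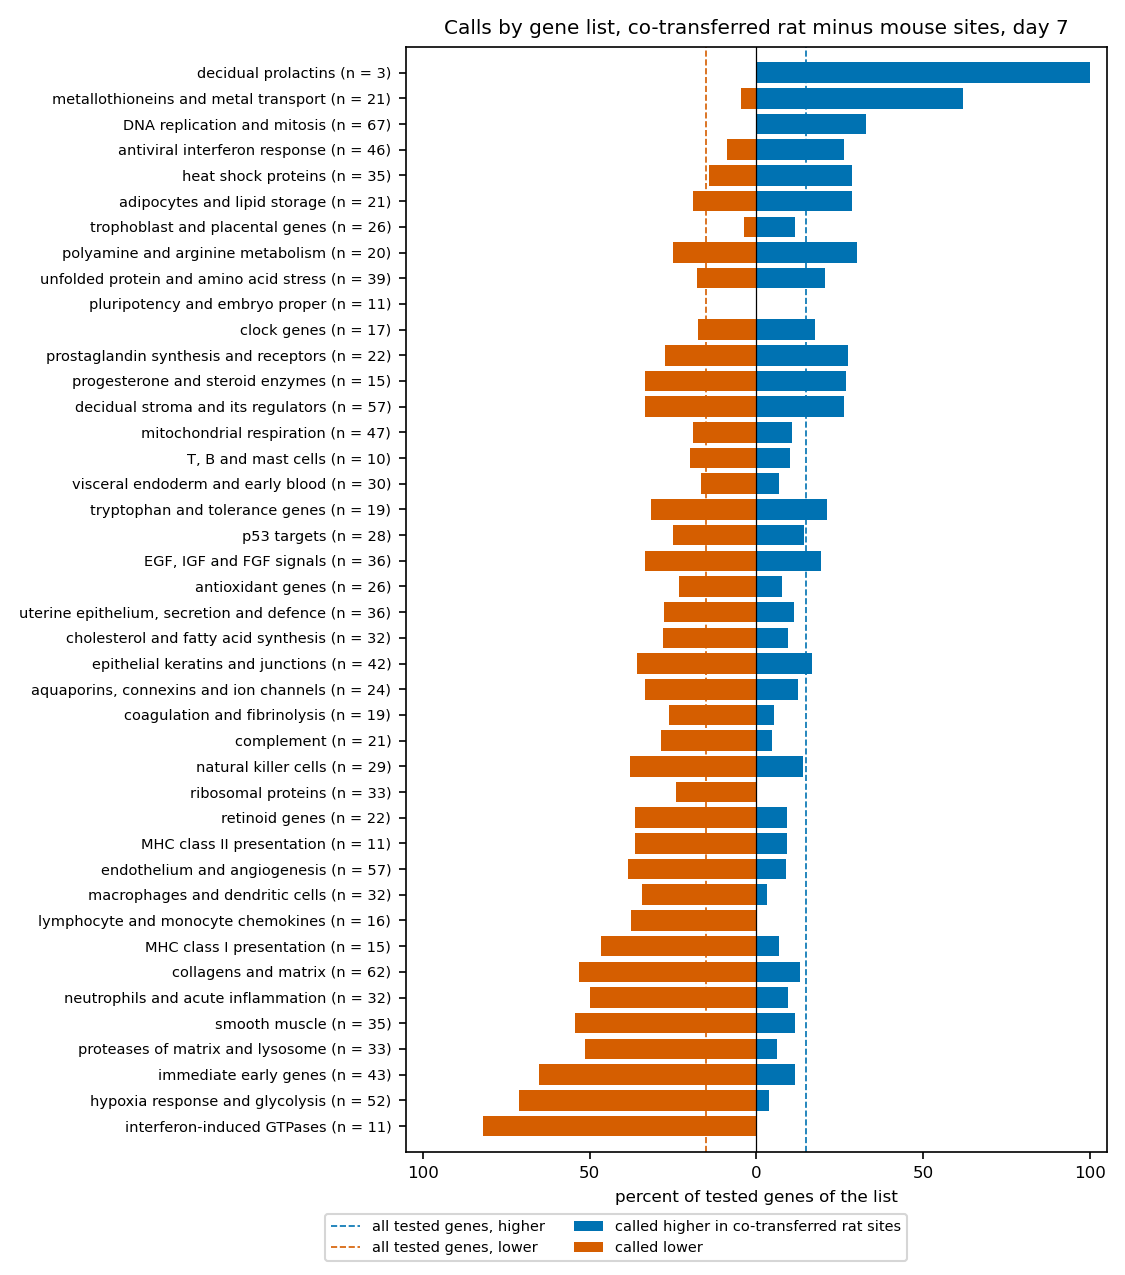
Percent of tested genes called higher (blue, to the right) and lower (orange, to the left) in co-transferred rat sites against mouse sites of day 7, for 42 gene lists with the number of tested genes in brackets. Dashed lines mark the shares over all 12010 tested genes, 14.7% higher and 15.2% lower, and the hypoxia list reaches 71.2% lower.

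A hormone gene of the decidua was among the largest rises. Prl3c1, a decidual hormone related to prolactin, had signals of 1678 and 1921 on the mouse arrays and of 9869.5, 11116 and 11189.5 on the co-transfer arrays (log2 change 2.54, SE 0.26, adjusted p = 0.000105). The 3 co-transfer arrays lay close to each other, and the groups did not overlap, as the choice of the 24 largest changes required. Prl6a1 rose from a mean of 3816 ± 5.94 (SD, n = 2) to 6069 ± 169.6 (n = 3), a log2 change of 0.66. Prl8a2, known as decidual prolactin-related protein, was already at 15284 and 15946 in mouse sites and reached 26423, 20888 and 23315 (log2 change 0.58, SE 0.13, adjusted p = 0.00753). Its call was lost without replicate 1 of the mouse sites (adjusted p = 0.0502). All 3 tested decidual prolactins were thus called higher, with a median log2 change of 0.66.

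The rises also included 3 genes known to answer to progestins or glucocorticoids. Zbtb16, a zinc finger transcription factor induced by progestins and glucocorticoids, was at 449 and 412 in mouse sites and at 2663.5, 2506 and 2382 in co-transferred rat sites (log2 change 2.40, SE 0.08, adjusted p = 3.42e-07). Tsc22d3, the glucocorticoid-induced leucine zipper gene, was at 982 and 894 against 4016, 3744 and 3775 (log2 change 1.97, SE 0.09, adjusted p = 1.13e-06). Fkbp5, a co-chaperone of steroid receptors, was at 668 and 719 against 2527, 2571 and 2590.4 (log2 change 1.80, SE 0.10, adjusted p = 2.41e-06). These 3 were not a list of their own: Fkbp5 was named as a member of the decidual list and the other 2 by size, and they were put together after their values were seen. Other genes that glucocorticoids are known to induce fell, among them Ddit4 by 2.33 and the phosphatase gene Dusp1 by 1.92 on the log2 scale.

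The decidual list as a whole was divided. Of its 57 tested genes 15 were higher and 19 lower, with a median log2 change of -0.09. Without replicate 2 of the mouse sites these counts were 9 and 12. Bmp2, a signal needed for decidualization, was at 4851 and 4838 in mouse sites and at 12003, 11301 and 12183 in co-transferred rat sites (log2 change 1.28, SE 0.11, adjusted p = 2.97e-05). Inhbb, which encodes the beta B subunit of activin and inhibin, went the other way, from 8417 and 8432 to 1013, 1034 and 1114 (log2 change -2.93, SE 0.11, adjusted p = 3.74e-07). The related subunit gene Inhba fell by 1.43 on the log2 scale, and Lum, a collagen-binding proteoglycan of stroma, fell by 1.32.

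Among steroid enzymes 4 of 15 tested genes were higher and 5 lower (3 without mouse array 1). Hsd17b1, which makes estradiol from estrone, was at 133 and 166 against 632, 531 and 513 (log2 change 1.58, SE 0.11, adjusted p = 1.22e-05). Hsd11b1 and Hsd11b2, which activate and inactivate glucocorticoids, changed in opposite directions. Hsd11b1 rose by a log2 change of 0.71 to 2182, 1981 and 2213, and Hsd11b2 fell from 4649.9 and 4596 to 2121, 2184 and 2215 (log2 change -1.07).

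**Figure D2:**
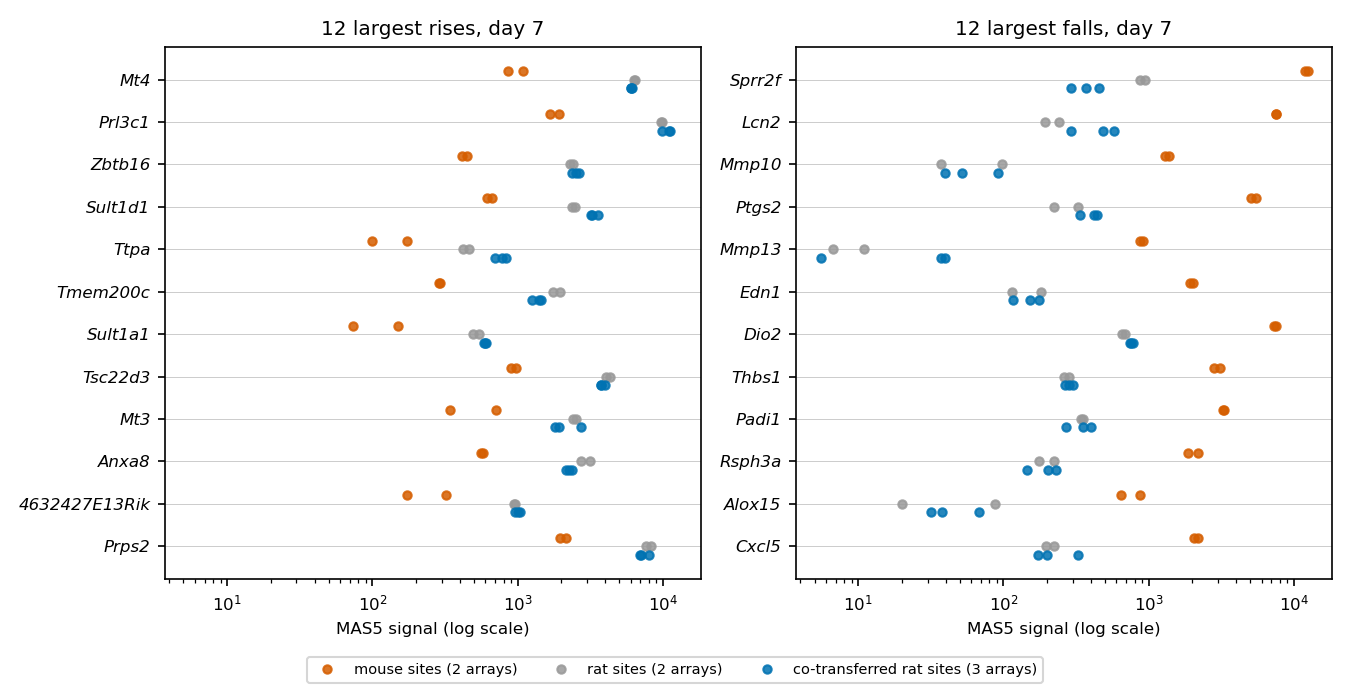
MAS5 signals on a log scale (x axis) on every day 7 array for the 12 largest rises and the 12 largest falls between mouse and co-transferred rat sites (y axis), with orange points for 2 mouse arrays, grey for 2 rat arrays and blue for 3 co-transfer arrays. The genes were chosen among those whose mouse and co-transfer arrays do not overlap, so a gap between orange and blue points is given by the choice, as for Sprr2f at 290.4, 371 and 452 against 11981 and 12449.

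The metallothioneins, small proteins that bind zinc and copper, rose together. Mt4, known from squamous epithelium, was the largest rise named, at 859 and 1094 in mouse sites and at 6093.5, 6069 and 5997.5 in co-transferred rat sites (log2 change 2.57, SE 0.11, adjusted p = 9.99e-07). Mt3, known from the brain, was at 345 and 713 against 1810.1, 1932 and 2743 (log2 change 1.97, SE 0.33, adjusted p = 0.00169). Mt1 and Mt2, the broadly expressed members induced by zinc and by glucocorticoids, had log2 changes of 1.43 and 1.28. For Mt1 the signals were 4679 and 4027 against 11940.5, 11189 and 12178, and for Mt2 6839.9 and 6214 against 16401.5, 14832 and 16449.5. In each of these 4 genes the lowest co-transfer array was above the highest mouse array. Of the 21 tested genes of metallothioneins and metal transport 13 were higher and 1 lower (median 0.53), and 8 were higher without replicate 2 of the mouse sites. Slc39a4, an importer of zinc, rose by a log2 change of 1.31, and Slc40a1, the iron exporter ferroportin, fell from 2202 and 2145 to 853, 970.1 and 974.

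The 4 metallothionein genes lie within one cluster on chromosome 8 and moved together. The promoter stretches with the most matches to the metal response element core among the 4, those of Mt2 and Mt4, are shown. Each is the stretch of 250 bases before the gene's start in RefSeq (GRCm38.p6), printed 5′ to 3′ on the gene's strand. Capitals mark matches to the core TGCNCNC on either strand, where matches can overlap.
Mt2 (chr8:94172368-94172617, plus strand): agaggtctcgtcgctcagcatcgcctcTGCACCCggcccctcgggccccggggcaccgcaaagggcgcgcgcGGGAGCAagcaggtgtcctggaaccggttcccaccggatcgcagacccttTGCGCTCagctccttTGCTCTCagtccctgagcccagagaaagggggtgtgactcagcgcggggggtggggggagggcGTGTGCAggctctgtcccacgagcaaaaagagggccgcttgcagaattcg
Mt4 (chr8:94136954-94137203, plus strand): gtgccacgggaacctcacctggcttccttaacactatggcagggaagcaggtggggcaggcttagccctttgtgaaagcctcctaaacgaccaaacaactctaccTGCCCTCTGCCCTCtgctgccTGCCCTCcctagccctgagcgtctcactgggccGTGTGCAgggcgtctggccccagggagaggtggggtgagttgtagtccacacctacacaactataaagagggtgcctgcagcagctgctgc
Mt2 had 5 matches between 223 and 50 bases before the start, Mt4 had 4 between 145 and 91 bases, and Mt1 and Mt3 had 1 each. These counts depend on the RefSeq start used, and matches outside the 250 bases were not counted. The core is short, and 47.2% of all 27025 genes with a promoter entry, tested or not, hold at least 1 match. Its presence in each of the 4 is therefore a description only.

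Genes of the uterine epithelium and of its secretions were among the largest falls. Sprr2f, a cornified envelope protein that estrogen induces in uterine epithelium, fell from 11981 and 12449 to 290.4, 371 and 452 (log2 change -4.86, SE 0.14, adjusted p = 1.44e-07), the largest change of any named gene. Lcn2, lipocalin 2, an iron-scavenging protein of epithelium and neutrophils, fell from 7509 and 7531 to 292, 483 and 576 (log2 change -3.94, SE 0.21, adjusted p = 2.15e-06). Ltf, the estrogen-induced secretory protein lactoferrin, was at 1738.5 and 1383 against 279, 329 and 162 (log2 change -2.40, SE 0.21, adjusted p = 3.89e-05). Signals of these 3 genes did not overlap between the groups. Of 36 tested genes of epithelial secretion and defence 10 were lower and 4 higher (median -0.21), with 2 higher when either mouse array was left out. Aqp5, a water channel of glands, was among the rises with 102 and 118 against 442, 511.5 and 455, and so was Agr2, a disulfide isomerase of secretory cells, with 622 and 673 against 1602, 1600.4 and 1589.

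Structural genes of epithelium were more often lower than higher. Of 42 tested keratin and junction genes 15 were lower and 7 higher (median -0.21). Krt8, a keratin of simple epithelium, was at 4161 and 3799 against 1374, 1334 and 1398.5 (log2 change -1.50, SE 0.08, adjusted p = 1.83e-06), and its partner Krt18 at 11985.5 and 12251 against 5467, 5177 and 5301.5. Krt7 changed by -1.65 and the tight junction gene Cldn7 by -1.68. In the opposite direction, Ppl, the desmosomal protein periplakin, rose by 1.08. The sum of 6 epithelial markers was 21453 to 21688 on the mouse arrays and 9683 to 10068 on the co-transfer arrays, and 4 of the 6 were called lower.

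The cyclooxygenase gene of the implantation reaction was high in mouse sites and low in co-transferred rat sites. Ptgs2, the inducible cyclooxygenase that makes the precursor of prostaglandins, was at 5031 and 5473 against 334, 423 and 441 (log2 change -3.55, SE 0.20, adjusted p = 3.03e-06). Alox15, a lipoxygenase, was at 879 and 649 against 37.6, 31.5 and 67.7 (log2 change -3.00, SE 0.25, adjusted p = 3.33e-05), where 2 of the 3 co-transfer arrays lay below the pseudocount. Hpgd, which inactivates prostaglandins, fell from 1325 and 1408 to 510.5, 475 and 501 (log2 change -1.36). Ptgs2 and Hpgd were thus both lower, while the prostaglandin E receptor gene Ptger3 rose from 257 and 252.5 to 750.4, 809 and 696 (log2 change 1.37). In the list of 22 tested prostaglandin genes 6 were higher and 6 lower (median 0.17).

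Growth factor genes that act around implantation moved in both directions. Hbegf, an EGF family ligand, fell from 1264 and 1253 to 302, 345 and 339 (log2 change -1.77, SE 0.17, adjusted p = 6.77e-05). Nrg1, neuregulin 1, was at 438 and 518 in mouse sites and at 13.7, 80.4 and 63.1 in co-transferred rat sites, 1 of them below the pseudocount (log2 change -2.34). Igf1, insulin-like growth factor 1, rose from 2079.8 and 1943 to 5527, 5616 and 5697 (log2 change 1.46, SE 0.08, adjusted p = 2.41e-06), and Tgfa, another EGF family ligand, rose by 1.04. For each of the 4 the arrays of the 2 groups did not overlap. The list of EGF, IGF and FGF signals had 7 of 36 tested genes higher and 12 lower (median -0.15). Without replicate 3 of the co-transferred rat sites 4 were higher, and without either mouse array 4 as well.

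Matrix-degrading enzymes were more often lower than higher. Mmp10, stromelysin 2, was at 1292 and 1390.3 in mouse sites and at 52.1, 91.3 and 39.6 in co-transferred rat sites, where 2 of 3 values lay below the pseudocount (log2 change -3.59, SE 0.43, adjusted p = 0.000259). Mmp13, a collagenase, was at 871 and 910.5 against 37.4, 39.6 and 5.5 (log2 change -3.51, SE 0.17, adjusted p = 1.30e-06), and all 3 of its co-transfer values lay below the pseudocount. Mmp11 changed by -2.17 and the gelatinase Mmp9 by -2.10, while Timp3, an inhibitor of these enzymes, rose from 5353 and 5588 to 8304, 8107.5 and 8341 (log2 change 0.59). Of 33 tested proteases of matrix and lysosome 17 were lower and 2 higher (median -0.31), and 1 was higher without mouse array 1 or without co-transfer array 2 or 3.

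Among genes of the matrix itself falls outnumbered rises, with 33 of 62 tested members lower, 53.2%, and 8 higher (median -0.37). The number higher was 5 without mouse array 2 and without co-transfer array 1 or 3. Thbs1, the matrix protein thrombospondin 1, fell from 2837.5 and 3092 to 266, 282 and 303 (log2 change -3.15, SE 0.12, adjusted p = 5.66e-07), and all 3 tested thrombospondins were called lower. Tnc, tenascin C, which appears in remodelled stroma, fell from 4732 and 4576 to 636, 826 and 663 (log2 change -2.63, SE 0.15, adjusted p = 3.14e-06). Of 17 collagen chains 12 were lower and 2 higher, from Col8a1 at -1.89 to a highest value of 0.59. The arrays of the groups did not overlap for Thbs1, Tnc or Col8a1. Bgn, the proteoglycan biglycan, rose from 4187 and 2869 to 6616, 6421 and 6681 (log2 change 0.91). Plat, tissue plasminogen activator, fell by 1.56 from 5085.5 and 4918 to 1499, 1825 and 1656.5.

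Of 52 tested genes of the hypoxia response and glycolysis 37 were lower (71.2%) and 2 higher, with a median log2 change of -0.79. Low oxygen stabilises hypoxia-inducible factors, which bind the core ACGTG and raise genes of sugar breakdown, vessel growth and their own degradation. Egln3, a prolyl hydroxylase that marks those factors for degradation, was at 1330.1 and 1281 against 200.1, 206 and 221 (log2 change -2.36, SE 0.10, adjusted p = 1.00e-06). Ddit4, an inhibitor of mTOR signalling, was at 4618 and 4777 against 878, 839 and 961 (log2 change -2.33, SE 0.15, adjusted p = 5.52e-06), and Bhlhe40, a repressor shared with the clock, at 3103 and 3066 against 310.1, 451 and 480.3 (log2 change -2.76, SE 0.16, adjusted p = 3.68e-06). None of these genes had overlapping arrays.

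Within glycolysis 10 of 13 tested enzymes were lower and 0 higher, from Eno2 at -2.29 to a highest value of 0.24. Eno2, an enolase, was at 929 and 1072 against 167.5, 165 and 145. Of the 3 tested prolyl hydroxylases 2 were lower. The 2 called rises of the list were Pfkfb4, a regulator of glycolysis, at 0.52, and Epas1, the gene of hypoxia-inducible factor 2 alpha, at 0.45. Vegfa, the vessel growth factor induced by hypoxia, fell from 5498 and 5653 to 2276, 2179 and 2271 (log2 change -1.29, SE 0.09, adjusted p = 7.39e-06), and Adm, adrenomedullin, from 3934 and 3775 to 751, 1099 and 918.5 (log2 change -2.01, SE 0.15, adjusted p = 1.42e-05). Over the leave-one-out fits the number lower ran from 33 to 36.

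Promoters of Egln3 and Ddit4 are shown as the called members of largest change with a RefSeq promoter entry and a match to ACGTG. Capitals mark the match on either strand.
Egln3 (chr12:54203875-54204124, minus strand): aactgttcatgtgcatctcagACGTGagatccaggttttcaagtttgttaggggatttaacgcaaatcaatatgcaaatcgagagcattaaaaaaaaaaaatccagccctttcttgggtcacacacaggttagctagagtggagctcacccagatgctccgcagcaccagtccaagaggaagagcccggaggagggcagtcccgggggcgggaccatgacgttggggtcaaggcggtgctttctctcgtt
Ddit4 (chr10:59951771-59952020, minus strand): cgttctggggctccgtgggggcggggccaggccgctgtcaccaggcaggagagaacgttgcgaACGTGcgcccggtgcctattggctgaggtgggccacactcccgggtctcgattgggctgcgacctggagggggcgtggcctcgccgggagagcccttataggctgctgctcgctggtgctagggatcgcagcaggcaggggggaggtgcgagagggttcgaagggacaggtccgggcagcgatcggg
The match lay 229 bases before the start in Egln3 and 187 in Ddit4, and Eno2 had 0 matches in its window. Of 47 tested list members with a promoter entry 27 held the core (57.4%), against 18.5% of all genes with an entry, tested or not. Of the 33 lower members with an entry 19 held it. These are letters in a window and do not show binding.

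Immediate early genes, transcribed within minutes of a stimulus, were lower in 28 of 43 tested cases and higher in 5 (median -0.76). Fos, a subunit of the AP-1 transcription factor, was at 7375.5 and 8047 against 1589, 1775 and 1627 (log2 change -2.17, SE 0.12, adjusted p = 2.51e-06). Ier3 was at 11113 and 10809 against 1462, 1596 and 1328 (log2 change -2.86, SE 0.10, adjusted p = 3.42e-07), and Ccn2, connective tissue growth factor, at 6821 and 6477 against 1502, 1473 and 1736 (log2 change -2.05, SE 0.09, adjusted p = 1.11e-06). In each the lowest mouse array lay far above the highest co-transfer array. Among FOS and JUN family genes 6 of 7 were lower, and among NR4A and EGR family genes 4 of 6 were lower and 1 was higher. Myc, the proliferation factor, was among the rises at 711.5 and 693 against 1373, 1603 and 1511 (log2 change 1.03).

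**Figure D3:**
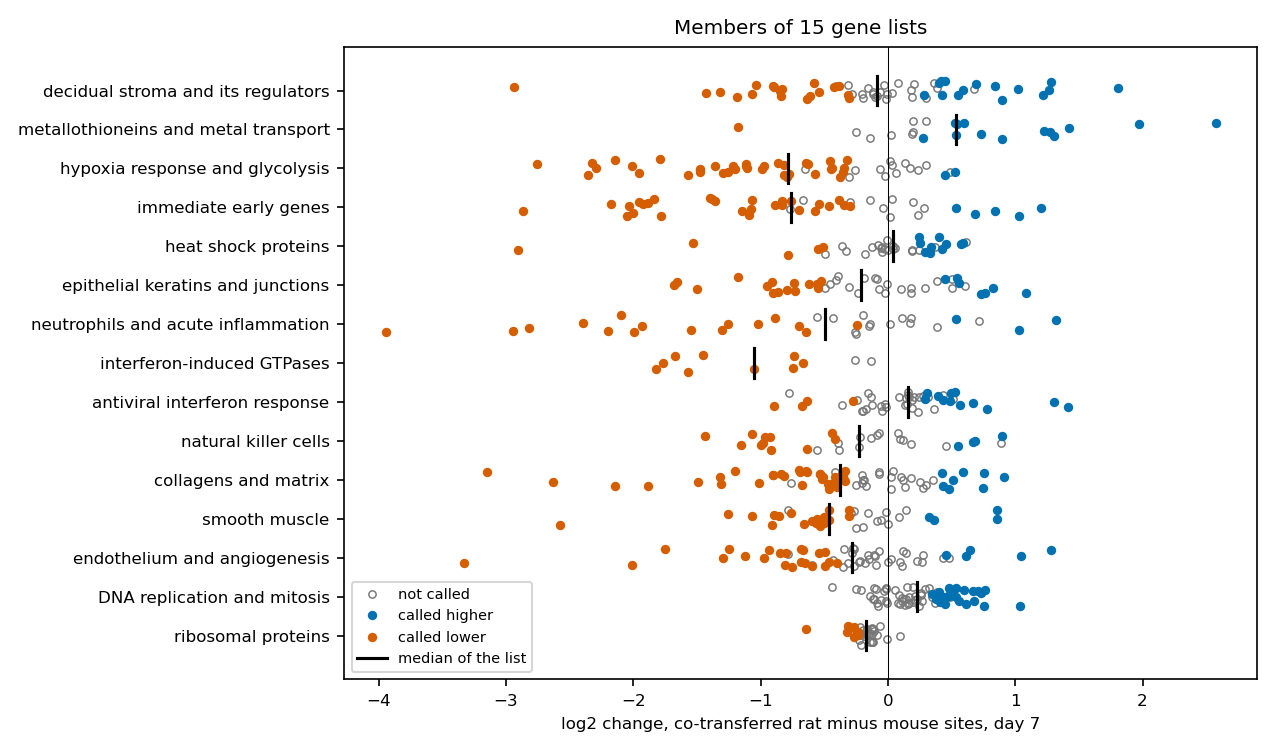
Log2 change between co-transferred rat and mouse sites of day 7 (x axis) for each tested gene of 15 lists (rows), filled blue where called higher, filled orange where called lower and open where not called, with a black bar at the list's median. The hypoxia and immediate early lists spread to the left around medians of -0.79 and -0.76, while the metallothionein list lies to the right around 0.53.

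Genes of heat shock proteins moved in both directions, with large falls of a single near-identical pair. Hspa1a, an inducible 70 kDa chaperone, was at 3253 and 3722 against 439, 351 and 459 (log2 change -2.91, SE 0.12, adjusted p = 9.99e-07), and Hspa1b at 7748.5 and 7875 against 2497, 2834 and 2701 (log2 change -1.53, SE 0.09, adjusted p = 4.63e-06). The 2 genes are near-identical copies, and their promoters of 250 bases differ at 3 bases, so probe sets may not separate them. Over the list 10 of 35 tested heat shock genes were higher and 5 lower (median 0.04). The rises were smaller, as for Cryab, alpha B crystallin, at 0.59, and the count of 10 became 2 without mouse array 2, 4 without mouse array 1 and 5 without co-transfer array 1.

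The promoter of Hspa1a, as the heat shock gene of largest change, is shown with the heat shock element core GAANNTTC in capitals.
Hspa1a (chr17:34972157-34972406, minus strand): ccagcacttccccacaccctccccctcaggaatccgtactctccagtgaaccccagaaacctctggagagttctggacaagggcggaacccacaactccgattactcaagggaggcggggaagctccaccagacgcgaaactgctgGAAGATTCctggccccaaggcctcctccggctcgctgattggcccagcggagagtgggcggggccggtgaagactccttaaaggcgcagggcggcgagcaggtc
The match lay 104 bases before the start, and 10 of 29 heat shock genes with an entry held the core (34.5%), against 7.73% of all genes with an entry.

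Nupr1, a transcriptional regulator induced by stress, fell from 3687 and 3707 to 448, 565 and 572 (log2 change -2.69, SE 0.14, adjusted p = 1.83e-06). Among unfolded protein and amino acid stress genes 8 of 39 were higher and 7 lower (median 0.07). The number higher was 3 without mouse array 2, and 5 without mouse array 1 or co-transfer array 1. In that list Phgdh, the first enzyme of serine synthesis, rose from 1411 and 1265 to 2748, 2611 and 2881 (log2 change 1.01). Plk2, a polo-like kinase and p53 target, fell from 4076 and 4300.3 to 581, 590.2 and 465.5 (log2 change -2.82, SE 0.17, adjusted p = 3.90e-06). The cell cycle inhibitor gene Cdkn1a fell by 1.04 from 1794 and 1894 to 874, 853 and 879.7. Of 28 tested p53 targets 7 were lower and 4 higher (median -0.02). Without mouse array 2 these counts were 4 and 2, and 2 were also higher without mouse array 1.

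Genes of DNA replication and mitosis were called in 1 direction. Of 67 tested members 22 were higher (32.8%) and 0 lower, with a median log2 change of 0.23. Without replicate 2 of the mouse sites 14 were higher and 1 lower. Rrm1, a subunit of ribonucleotide reductase, was at 2790.4 and 2649 against 5407, 5834 and 5734 (log2 change 1.04, SE 0.10, adjusted p = 5.73e-05). Mcm2, a subunit of the replicative helicase, was at 1192 and 1475 against 2219, 2199.7 and 2479.5, and 3 of the 6 helicase subunits were called higher. E2f8, an atypical E2F known from polyploid decidual and trophoblast cells, rose from 2516 and 2245 to 4029, 3915 and 4207 (log2 change 0.75).

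Genes of neutrophils and acute inflammation were lower in 16 of 32 tested cases and higher in 3 (median -0.50), or in 1 without mouse array 2. S100a9, a calprotectin subunit of neutrophils, was at 1916 and 1715 against 241, 232 and 158 (log2 change -2.82, SE 0.19, adjusted p = 8.35e-06). Cxcl5, a chemokine that attracts neutrophils, was at 2038 and 2174 against 326, 172 and 198 (log2 change -2.94, SE 0.18, adjusted p = 5.41e-06). Acod1, which makes itaconate in inflamed myeloid cells, was at 287 and 264 against 28.5, 22.1 and 28.5, below the pseudocount on each co-transfer array. The sum of the 3 neutrophil markers was 5267 to 5431 on the mouse arrays and 1044 to 1230 on the co-transfer arrays, and all 3 were called lower.

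Macrophage genes were lower more often than higher, while the defining markers were not called. Of 32 tested macrophage and dendritic cell genes 11 were lower and 1 higher (median -0.24), and 7 were lower when either mouse array was left out. The largest fall was that of Cd14, the lipopolysaccharide co-receptor, at 3660.3 and 3757 against 1075, 953 and 1140.1 (log2 change -1.76, SE 0.13, adjusted p = 1.49e-05). The 3 defining markers summed to 4801 to 4853 on the mouse arrays and to 4652 to 4954 on the co-transfer arrays, and 0 of them were called. Arg1, arginase 1, was at 152 and 125.5 in mouse sites and at 12.7, 6.2 and 34.5 in co-transferred rat sites, below the pseudocount in the latter. Of 16 tested chemokine genes 6 were lower and 0 higher (median -0.39), among them Ccl6 at -1.21 and Cxcl12 at -0.75.

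Among natural killer cell genes most granzymes, proteases of the killing granules, were lower. Of 29 tested genes 11 were lower and 4 higher (median -0.22), or 2 higher without co-transfer array 1, while 7 of 8 granzymes were lower and 0 higher, with log2 changes between -1.44 and -0.39. Gzmg was at 4246 and 4115.5 against 1418, 1577 and 1536 (log2 change -1.44, SE 0.08, adjusted p = 3.71e-06), and Gzmc at 2474 and 2576 against 1054, 1153 and 1109 (log2 change -1.15, SE 0.08, adjusted p = 9.31e-06). Gzma was at 4546 and 4412 against 2244, 2271 and 2206, and the perforin gene Prf1 at 627 and 579.5 against 288, 274 and 259.7. The groups did not overlap in any of these 4. Gzmc to Gzmg are similar in sequence, and their probe sets may share transcripts. The sum of 4 natural killer cell markers was 5759 to 5894 on the mouse arrays and 3121 to 3263 on the co-transfer arrays. Of the 4 markers 2 were called lower, Gzma and Prf1, and Gzma made up most of the sum.

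The interferon-induced GTPases, which act against pathogens inside cells and answer mainly to interferon gamma, were lower in 9 of 11 tested cases and higher in 0 (median -1.05). Igtp was at 2477 and 2302 against 607, 726 and 808 (log2 change -1.67, SE 0.15, adjusted p = 4.12e-05), Gbp2 at 1749.8 and 1764.5 against 463, 548 and 427 (log2 change -1.76, SE 0.15, adjusted p = 3.69e-05), and Ifi47 at 1467.5 and 1321 against 347, 444 and 516 (log2 change -1.57, SE 0.15, adjusted p = 6.12e-05). None of the 3 had overlapping arrays. The count of lower GTPases was 9 or 10 in each fit without 1 array.

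The antiviral genes, which answer to type I interferon, were more often higher than lower, with 12 of 46 tested members higher, 4 lower and a median of 0.16. Without mouse array 2 the number higher was 5, beside 7.79% of all genes, and without mouse array 1 it was 7, beside 9.73%. Ifit3, an RNA-binding antiviral protein, was at 229 and 223 against 735, 565 and 641 (log2 change 1.31, SE 0.11, adjusted p = 3.62e-05). Irf7, the transcription factor of that response, was at 908 and 1086 against 1662, 1633 and 1954 (log2 change 0.78, SE 0.12, adjusted p = 0.000924). Irf1, a factor of the gamma response, fell from 1642 and 1534 to 1044, 924 and 959 (log2 change -0.67, SE 0.11, adjusted p = 0.00193). Of 6 tested OAS genes 4 were higher and 0 lower, and of 3 tested IFIT genes 1 was higher and 0 lower. Oas1b, the largest OAS change at 1.42, lost its call without co-transfer array 1 or 3 or without either mouse array.

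Both classes carry the interferon response element core (GAAA, any 2 bases, GAAA) in some promoters, and those of Gbp2 and Igtp are shown with it in capitals, on either strand, since they carry the core and fell. They were chosen for printing after their values were seen.
Gbp2 (chr3:142620413-142620662, plus strand): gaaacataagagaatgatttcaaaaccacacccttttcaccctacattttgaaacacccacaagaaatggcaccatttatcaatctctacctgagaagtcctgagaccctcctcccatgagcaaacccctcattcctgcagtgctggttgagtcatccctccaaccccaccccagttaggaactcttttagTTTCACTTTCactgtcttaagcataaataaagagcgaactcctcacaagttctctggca
Igtp (chr11:58199306-58199555, plus strand): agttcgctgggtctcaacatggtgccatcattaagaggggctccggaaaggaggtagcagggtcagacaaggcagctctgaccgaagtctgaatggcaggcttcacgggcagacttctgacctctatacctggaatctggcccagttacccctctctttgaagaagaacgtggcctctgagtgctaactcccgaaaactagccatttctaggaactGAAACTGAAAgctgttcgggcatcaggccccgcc
The match lay 59 bases before the start in Gbp2 and 34 in Igtp. It was present in 7 of 8 GTPase genes with an entry (87.5%) and in 9 of 34 antiviral genes (26.5%), against 3.46% of all genes with an entry. Ifi47 had 0 matches in its window.

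Antigen presentation genes, which interferon gamma also raises, were more often lower than higher. Of 15 tested MHC class I genes 7 were lower and 1 higher (median -0.41), with 0 higher without mouse array 2. H2-D1, a classical class I heavy chain, was at 10338 and 10089.7 against 6550.0, 5609 and 6348 (log2 change -0.73, SE 0.09, adjusted p = 0.000417), and H2-K1 at 9258 and 9523 against 6159, 5976 and 6135 (log2 change -0.62). Psmb9, an immunoproteasome subunit, fell by 0.80. The class I genes are near copies of each other, so their probe sets may share transcripts. Among 11 class II genes 4 were lower and 1 higher (median -0.14). The number lower was 1 without co-transfer array 1 or mouse array 2 and 2 without co-transfer array 2 or 3, and 0 were higher without mouse array 1.

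Vessel genes were more often lower than higher, with 22 of 57 tested members lower and 5 higher (median -0.28), or 3 higher without mouse array 1. Edn1, the vasoconstrictor endothelin 1, fell from 2033 and 1934 to 117, 176 and 151 (log2 change -3.33, SE 0.16, adjusted p = 1.24e-06), and Pgf, placental growth factor, from 604 and 539 to 73.2, 200.0 and 136 (log2 change -1.75, SE 0.30, adjusted p = 0.00187). Efnb2, an ephrin of arteries, rose from 1773 and 1883 to 3651, 4104.5 and 3765 (log2 change 1.05). The sum of 3 endothelial markers was 3484 to 3489 on the mouse arrays and 2653 to 2955 on the co-transfer arrays, with 1 of the 3 called lower.

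Smooth muscle genes were lower in 19 of 35 tested cases (54.3%) and higher in 4 (median -0.46), or in 2 without mouse array 2. Oxtr, the oxytocin receptor, was at 2202 and 2267 against 340.1, 369.6 and 277 (log2 change -2.58, SE 0.20, adjusted p = 1.96e-05). Cnn1, a calponin of contractile fibres, was at 4343 and 5169 against 2017, 1987 and 1842 (log2 change -1.26, SE 0.10, adjusted p = 2.61e-05). Both changed by more than the spread between arrays. The sum of 4 muscle markers was 19488 to 19810 on the mouse arrays and 13415 to 13901 on the co-transfer arrays, with 2 of the 4 called lower. The sum of 3 adipocyte markers was 310.0 to 387 on the mouse arrays and 649 to 968 on the co-transfer arrays. Of the 3 only Retn was called higher (log2 change 1.13), and it made up most of the sum on each array. Adipoq and Cidec were not called (log2 changes 0.30 and 0.14), and neither reached the 60th percentile of any of these 5 arrays. The marker sums of epithelium, muscle, natural killer cells, neutrophils, endothelium, decidua, adipocytes and visceral endoderm all separated the groups. So did those of mast cells and of T and B cells, although no T or B cell marker passed the filter for testing. A sum mostly follows its brightest markers, and the part of these sums in the changes of other genes was not tested.

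Genes of retinoic acid, which is made and removed by opposed enzymes, were lower in 8 of 22 tested cases and higher in 2 (median -0.11). Aldh1a3, which makes retinoic acid, was at 416 and 496 against 66.3, 104 and 72.3 (log2 change -1.90, SE 0.17, adjusted p = 5.29e-05). Cyp26a1, which removes it, was at 420.3 and 466 against 1209, 1518 and 1262 (log2 change 1.47, SE 0.17, adjusted p = 0.000201), whereas Cyp26b1, with the same role, was at 220.1 and 217 against 41.0, 23.2 and 34.4, below the pseudocount on all 3 co-transfer arrays (log2 change -1.62, SE 0.12, adjusted p = 1.39e-05). Lrat, which stores vitamin A as ester, rose from 581 and 544 to 1374, 1414 and 1379. The arrays of the groups did not overlap in any of these 4 genes, as in nearly all called probe sets. Both removal genes were called in opposite directions.

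Further genes of metabolism and transport were called singly. Dio2, which activates thyroid hormone, fell from 7563 and 7359 to 777, 759 and 739 (log2 change -3.20, SE 0.08, adjusted p = 1.22e-07). The sulfotransferase gene Sult1d1 rose from 667 and 617 to 3249, 3211 and 3586.5 (log2 change 2.28, SE 0.11, adjusted p = 1.62e-06), and Sult1a1, another sulfotransferase gene, from 73.2 and 149 to 606.5, 589.9 and 595. Prps2, an enzyme of nucleotide synthesis, rose from 2154.5 and 1952 to 7083, 6945 and 8058 (log2 change 1.81). Lpl, lipoprotein lipase, fell from 3095 and 2996 to 904, 1041 and 1101 (log2 change -1.54), and Gatm, which makes the precursor of creatine, rose from 1030.3 and 969.7 to 2536, 2885 and 2613 (log2 change 1.37). Cholesterol and fatty acid synthesis had 9 of 32 tested genes lower and 3 higher (median -0.10), with 4 lower without mouse array 1.

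Several lists showed no clear excess of calls in 1 direction. Clock genes were higher in 3 and lower in 3 of 17 tested cases, and the clock gene Per2 fell by 0.92 while Per1 rose by 0.84. Without mouse array 2 no clock gene was called higher, and Per1 had an adjusted p of 0.0719. Ribosomal proteins were lower in 8 of 33 and higher in 0 (median -0.17), but in 1 of 33 with a median of -0.004 after quantile normalization, so their direction depends on the scaling. Leaving out either mouse array gave 1 lower, and leaving out co-transfer array 1 or 2 gave 3. Of 47 mitochondrial respiration genes 9 were lower and 5 higher (median -0.04, and 0.08 after quantile normalization), and 3 were lower when either mouse array was left out. Without mouse array 2, 3 were higher.

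Shares called among embryonic and placental genes of day 7 were near or below those over all genes, 14.7% higher and 15.2% lower. Of 26 tested trophoblast and placental genes 3 were higher (11.5%) and 1 lower (3.85%). Of 30 of visceral endoderm and early blood 2 were higher (6.67%) and 5 lower (16.7%), and of 11 of the embryo proper 0 were called. With single arrays left out the trophoblast list had 1 to 4 higher and 1 to 2 lower, visceral endoderm 1 to 4 higher and 4 to 5 lower, and the embryo list 0 to 1 in either direction. The trophoblast low of 1 higher came without mouse array 1 and the 2 lower without mouse array 2. For visceral endoderm the 4 came without co-transfer array 2 and a count of 1 without co-transfer array 3 or either mouse array. In the embryo list 1 gene was called without co-transfer array 2 or 3 or mouse array 2. Prl8a9, a prolactin family gene known from the placenta, rose from 631 and 793 to 2019, 1889 and 1859.8 (log2 change 1.37, SE 0.13, adjusted p = 5.73e-05). Ttr, transthyretin, made by visceral endoderm among other tissues, was at 257 and 234 against 533, 537 and 537 (log2 change 0.97). The 4 markers of visceral endoderm summed to 348 to 364 on the mouse arrays and 620 to 794 on the co-transfer arrays, with 1 of 4 called higher. Of 4 trophoblast markers 2 had a probe set, Tpbpa and Elf5, and neither reached the 60th percentile of any of these 5 arrays, with sums of 152 to 175 and 172 to 359. The 3 markers of the embryo summed to 147 to 182 and 157 to 357, and 0 markers of either set were called. How far rat transcripts reached these probes was not tested.

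The levels of the largest changes were then set beside the other groups of the series. The rat sites of day 7 lay nearer to the co-transferred rat sites than to the mouse sites for all 12 of the largest rises and all 12 of the largest falls. The genes were chosen for the difference between mouse and co-transferred rat sites, so these counts are a description. Over all called probe sets with at least 2-fold changes, the share nearer to the co-transferred rat sites was 91.9% of the 854 rises and 92.7% of the 614 falls, against 67.3% of all tested probe sets. Sprr2f, for instance, was at 874 and 941 in rat sites, Ptgs2 at 225 and 326 and Mt4 at 6399 and 6343. These comparisons share the mouse arrays.

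The mouse sites of day 9 also lay nearer to the co-transferred rat sites of day 7 than to the mouse sites of day 7 for 8 of the 12 rises and 11 of the 12 falls. Co-transferred rat sites of day 9 did so for 11 and 11. Rat sites of day 9 did so for 1 of the 12 rises and 0 of the 12 falls. The 12 rises do not stand for all rises here, since over the 854 probe sets with at least 2-fold rises 69.2% were nearer to the co-transferred rat sites in rat sites of day 9, against 31.6% of the 614 falls and 56.1% of all tested. For mouse sites of day 9 these shares were 76.1%, 69.2% and 61.8%, and for co-transferred rat sites of day 9 they were 87.0%, 76.9% and 63.9%. Dio2 had signals of 617 and 535 in mouse sites of day 9, 792 and 769.7 in co-transferred rat sites of day 9 and 9629 and 9865 in rat sites of day 9. Mt4 had 9042 and 9165, 6996 and 7008 and 585 and 489 in the same order. In the rat sites of day 9, Prl3c1 was at 89.2 and 9.0, below its level in either group of day 7.

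**Figure D4:**
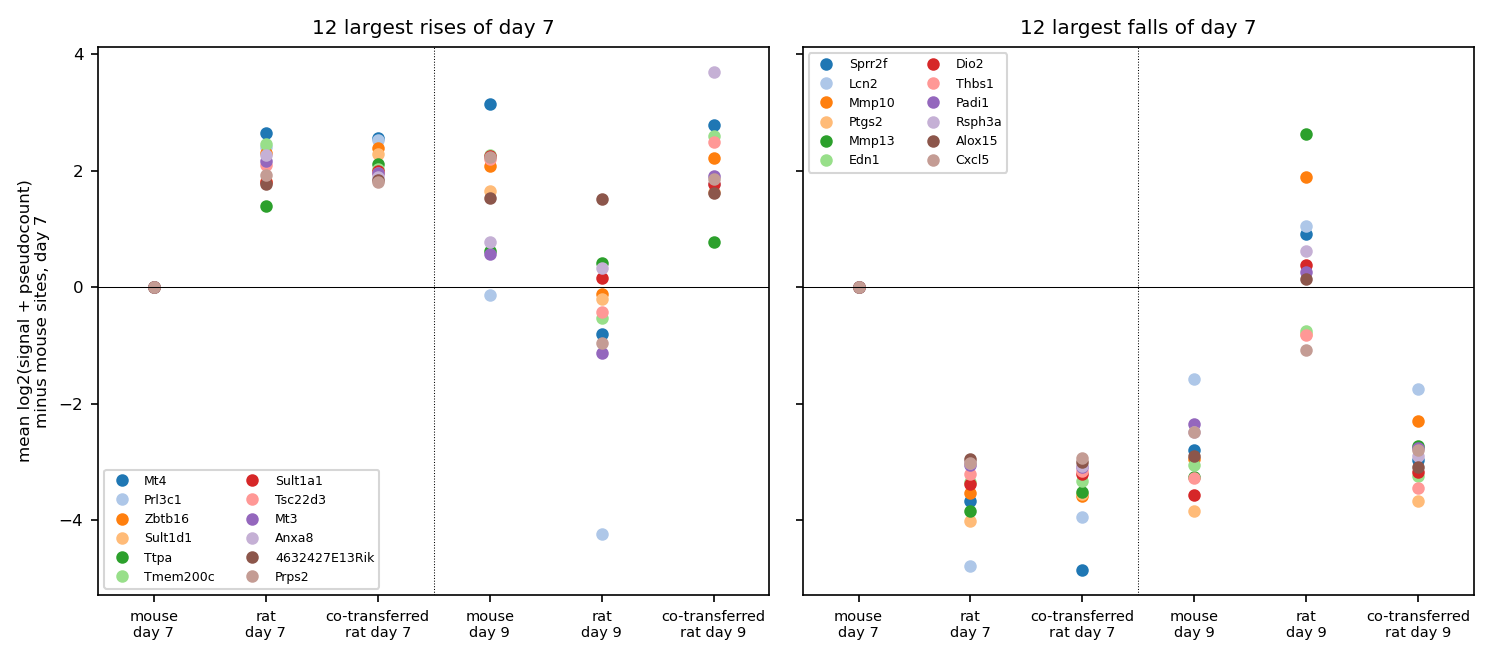
Mean log2(signal + 57.1) minus that of the mouse sites of day 7 (y axis) in the 6 groups (x axis, day 7 left and day 9 right of the dotted line) for the 12 largest rises and 12 largest falls, 1 colour for each gene. Rat sites of day 7, co-transferred rat sites of both days and mouse sites of day 9 mostly lie together and away from 0, while rat sites of day 9 lie nearer to 0 for these 12 falls and for 11 of these 12 rises, although over all 854 rises of at least 2-fold 69.2% were nearer to the co-transferred rat sites.

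The difference between co-transferred rat and mouse sites changed with the day for most of these genes. In limma's test of that change 4163 of 22155 probe sets were called (18.8%), among them 10 of the 12 largest rises and all 12 of the largest falls. The day 7 difference that chose these genes is part of this change, so the count is a description. On day 9 the difference was called for Prl3c1 and Anxa8, both again higher in co-transferred rat sites, and for Dio2, which had turned and was higher in them by 0.41. Prl3c1 was at 1823 and 1446 in mouse sites and at 6304 and 6339.5 in co-transferred rat sites of day 9. Anxa8, an annexin that binds membrane lipids, was at 985 and 1045 and 7772.5 and 8309.5, after 574 and 556.5 and 2248, 2161 and 2362 on day 7. Without replicate 2 of the co-transferred rat sites of day 9 there were 2433 calls of change over all probe sets, without replicate 1 of them 2563, without replicate 2 of the mouse sites of day 7 2490, and without replicate 2 of the mouse sites of day 9 2675.

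Where both kinds of rat site of day 7 differ was tested directly, since each was set against the same mouse arrays. Of 22155 probe sets 214 were called (0.966%), 127 higher and 87 lower in the co-transferred rat sites, and 3174 had an unadjusted p under 0.05. Of 12010 genes 111 were called (0.924%). Each left-out array changed this count by over 1.5 times, to 83, 140 and 96 without replicate 1, 2 or 3 of the co-transferred rat sites and to 34 or 35 when one of the rat arrays was left out. Their inferred runs differed too.

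The hypoxia, immediate early, metallothionein and DNA replication lists had 0 called members in that test, which for lists of their size is near the share of 0.924% over all genes. Igtp, at 551 and 428 in rat sites, did not pass (log2 change 0.50, 95% interval 0.17 to 0.83, adjusted p = 0.164), while the GTPase gene Iigp1 did. Iigp1 was at 4005.5 and 3705 in mouse sites, 1035 and 928 in rat sites and 1606, 2025 and 1889 in co-transferred rat sites, so the last group lay between the other 2 (co-transferred minus rat 0.87, adjusted p = 0.0236). Its call was lost without either rat array or without replicate 2 or 3 of the co-transferred rat sites (adjusted p from 0.0639 to 0.2). Ifit3 was at 219 and 249.5 in rat sites, near the mouse level given above (co-transferred minus rat 1.27, adjusted p = 0.00121), and kept its call without each single array. In all 3 of 11 GTPases and 5 of 46 antiviral genes were called higher than in rat sites, and 0 lower. Over all 12010 genes 62 were called higher in that test. The calls of the GTPase gene Irgm1 and the antiviral gene Usp18 were also lost when either rat array was left out. Irgm1 lost its call without each of replicates 1, 2 and 3 of the co-transferred rat sites too (adjusted p = 0.0804, 0.0639 and 0.0509).

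Some genes of stroma and natural killer cells lay lower in co-transferred rat sites than in either other group of day 7. Dpt, the matrix protein dermatopontin, was at 4802 and 4464 in mouse sites, 3791.5 and 3992.5 in rat sites and 1961, 2155 and 1769 in co-transferred rat sites (co-transferred minus rat -0.97, adjusted p = 0.00545). Gzmg, at 2439.9 and 2559.8 in rat sites, also differed (co-transferred minus rat -0.71, adjusted p = 0.00657). The 3 groups did not overlap in either gene. The call of Dpt was lost without replicate 2 of the rat sites (adjusted p = 0.0586), and that of Gzmg without replicate 1 (0.0526) or replicate 2 (0.0676) of the rat sites. The matrix list had 4 of 62 genes called lower than in rat sites and the natural killer list 4 of 29, with 0 higher in either. Over all 12010 genes 49 were called lower in that test. The calls of the matrix genes Lum, Dcn and Mfap4 and of Gzma were also lost when either rat array was left out. Dcn lost its call without each of replicates 1, 2 and 3 of the co-transferred rat sites too (adjusted p = 0.0650, 0.0551 and 0.0648). Lum did so without replicate 1 (0.0636) or replicate 3 (0.0586) of them. Gzmf lost its call without replicate 2 of the rat sites, and also without replicate 1, 2 or 3 of the co-transferred rat sites (adjusted p = 0.0967, 0.0628 and 0.0781).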

How the data were processed

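Gene expression was measured on 13 Affymetrix Mouse430_2 arrays in 6 groups. The deposited signal intensity of each probe set was made by the authors with MAS5, per the submitters' processing notes; its version was not given in the sources used here. Every array has the same 2% trimmed mean of 500. The deposited experiment files, of no numeric unit used as expression, gave hybridisation times, 2 dates and 2 scanners, and runs were inferred from the times (a gap of over 30 minutes starts a new run). No raw probe intensities or detection calls were used.

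The 64 control probe sets were left out, and 22155 of 45037 others, those above the 60th percentile of their array on at least 2 arrays, were tested. Values were log2(signal + 57.1), the 25th percentile of all signals. limma 3.58.1 (R 4.3.3, lmFit and eBayes) was fitted over all 13 arrays with a mean for each group, which shares 1 estimate of spread, and p-values were adjusted by Benjamini-Hochberg within a comparison. Calls were made where the adjusted p was under 0.05. Tables and figures used Python 3.11.15, pandas 2.3.3, numpy 2.4.6 and matplotlib 3.10.9.

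Of all probe sets 34958 had 1 gene symbol in the platform annotation, 932 several and 9211 none, and only the first kind was named. A gene stands for its tested probe set of highest mean, and 134 of 4649 genes with several tested probe sets had called ones in both directions. Probe sets ending in _x or _s can bind several transcripts, so near-identical genes are uncertain.

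Named genes were the 12 largest rises and 12 largest falls among called genes with groups that do not overlap and a mean signal of at least 500 in the higher group, then up to 4 called members of each of 42 lists with the largest change and up to 2 against the majority. All metallothioneins and decidual prolactins were named as well. For the comparison with rat sites the 5 largest rises and falls and up to 2 called members of each list were added. The comparison and the lists were chosen with earlier results of these data known. Promoters came from RefSeq (GRCm38.p6). In simulated data with 100 probe sets changed by each size, the fit called 77 at a log2 change of 1 and 96 at a log2 change of 2, with 5 false calls among 22155 probe sets. The simulated noise was independent, with no run effect and no other group difference. These counts therefore do not measure false calls in the real comparison, where run and group cannot be told apart. Alternatives were another pseudocount, filter or scaling, fewer arrays, array weights, batch and replicate blocks, and probe sets without _x and _s.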

Additional observations from a re-analysis of the deposited data

Results flagged for a closer look

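The difference between co-transferred rat and mouse sites was tested for a change from day 7 to day 9 in the 24 largest genes, and limma called that change in 22 of them. Values in brackets are the day 9 difference minus the day 7 difference on the log2 scale. A change against the direction of day 7 was called for the rises Mt4 (-2.95), Zbtb16 (-2.27), Sult1d1 (-2.29), Ttpa (-1.96), Tmem200c (-1.72), Sult1a1 (-2.48), Tsc22d3 (-1.69), 4632427E13Rik (-1.76) and Prps2 (-2.18). The same was true of the falls Sprr2f (4.69), Lcn2 (3.78), Mmp10 (4.25), Ptgs2 (3.71), Mmp13 (4.06), Edn1 (3.13), Dio2 (3.61), Thbs1 (2.98), Padi1 (2.68), Rsph3a (2.66), Alox15 (2.82) and Cxcl5 (2.63). In Anxa8 the difference was larger on day 9 (1.02). The day 7 difference that chose these genes is part of each value.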

How the results depend on the processing

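For co-transferred rat against mouse sites, leaving out single arrays gave 3867 to 6404 calls (6901 with all arrays), 2121 to 3473 higher and 1746 to 2931 lower, and the other settings gave 5350 to 7747. Of 4011 values of named genes under alternatives, 3865 kept direction and side of the threshold, 134 lost the call, 12 gained it and 0 reversed. The 226 named genes include 221 called ones, of which 184 were called under every alternative. Of 1512 list counts 1358 stayed within 1.5 times.

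For co-transferred against other rat sites, the 214 calls became 76 with no filter, 347 with a stricter filter, 25 with only the compared groups, 333 with array weights, 96 when blocked by date, 359 with the inferred run as a random effect, and 34 to 140 with single arrays left out. Of 669 values of 38 genes in that comparison 221 lost the call and 0 reversed, the cause not tested. The change with day gave 2446 calls with no filter in place of 4163, and 2433 to 4173 with single arrays left out, while all 528 values of the 24 largest genes stayed on their side of the threshold (22 genes called, 2 not called).

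With the replicate number as a block, 5404, 46 and 3106 calls were made in the 3 comparisons. The numbers pair nothing in the labels, and deviations of same-numbered arrays correlated at -0.046 and 0.040.

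The number of arrays, 2 and 3 a group, limits the precision, and dim probe sets near the pseudocount have shrunken changes. The inferred run cannot be told apart from group in the main comparison, and labels do not name the animals.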
